A study of Homo sapiens with 7 samples.

Results

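Genes of DNA repair and of the checkpoint that answers DNA damage were examined across dasatinib resistant K562 lines. The group was a list of 47 genes covering recombination, the Fanconi pathway, end joining, mismatch repair, excision repair, direct reversal and the checkpoint kinases. Members were found by matching their symbols in the deposited tables to the rows of the raw count table. That gave 46 of the 47 genes, out of 10452 genes in the deposited tables and 25702 gene IDs in the count table. The deposited tables hold as many genes as the filter on low values left here, so a gene with few reads could not be a member. The gene that was not found, MGMT, had few reads and is described after the others.

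K562 is an established chronic myeloid leukemia line that carries the BCR::ABL1 fusion kinase and lacks functional p53, and dasatinib is a tyrosine kinase inhibitor of that kinase. RNA of 7 lines was sequenced, with 1 library per line. The 2 control lines were drug naive K562 and K562 kept with the vehicle DMSO, and neither had been given dasatinib. The 5 DasR lines were taken at 10, 15, 25, 50 and 200 nM during a stepwise increase of dasatinib, so they are successive samples of one selection and not independent cultures. The study called the 10, 15 and 25 nM DasR lines early stage intermediates and the 50 and 200 nM DasR lines late stage intermediates, from the clustering of these same libraries. No line was sequenced again, so the p-values below measure the spread between lines of a group, and the comparison of all 5 DasR lines with the 2 controls does not use the stages.

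Cells mend each kind of DNA lesion by a dedicated route. Double strand breaks are rejoined by end joining or copied from the sister chromatid by homologous recombination, crosslinks pass through the Fanconi pathway, mismatched bases are removed after replication, and damaged bases or bulky adducts are cut out by base or nucleotide excision. The kinases ATM and ATR sense breaks and stalled replication and signal through CHEK2 and CHEK1. BCR::ABL1 is known for raising reactive oxygen species and for altering several of these routes, and many repair genes are transcribed together with replication genes when cells enter S phase.

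Promoter sequences are shown for 4 members whose RNA is described below, PARP1 and PALB2 among those that were higher in DasR lines and CHEK1 and DDB2 among those that were lower. They are the 250 bases before the RefSeq gene start in GRCh38.p14, each written 5′ to 3′ on the strand of the gene. They lie at chr1:226408094-226408343 on the minus strand for PARP1, chr16:23641311-23641560 on the minus strand for PALB2, chr11:125625979-125626228 on the plus strand for CHEK1 and chr11:47214204-47214453 on the plus strand for DDB2. Capitals mark letters of the E2F type and of the CCAAT box, searched on either strand. For E2F the letters searched were TTCCCGC as the first form, with TTGGCGC as another form, then TTGCCGC as the third form and finally TTCGCGC as the last. A CCAAT on the opposite strand reads ATTGG, and the second E2F form can share bases with it.
PARP1: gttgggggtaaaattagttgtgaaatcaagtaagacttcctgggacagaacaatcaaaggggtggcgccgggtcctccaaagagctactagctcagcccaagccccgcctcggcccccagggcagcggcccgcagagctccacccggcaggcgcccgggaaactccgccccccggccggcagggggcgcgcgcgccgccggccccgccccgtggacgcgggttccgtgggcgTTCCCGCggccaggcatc
PALB2: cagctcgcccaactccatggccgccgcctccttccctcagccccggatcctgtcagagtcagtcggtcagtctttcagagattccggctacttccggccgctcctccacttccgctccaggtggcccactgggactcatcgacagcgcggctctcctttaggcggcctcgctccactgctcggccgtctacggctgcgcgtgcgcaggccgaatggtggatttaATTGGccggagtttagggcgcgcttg
CHEK1: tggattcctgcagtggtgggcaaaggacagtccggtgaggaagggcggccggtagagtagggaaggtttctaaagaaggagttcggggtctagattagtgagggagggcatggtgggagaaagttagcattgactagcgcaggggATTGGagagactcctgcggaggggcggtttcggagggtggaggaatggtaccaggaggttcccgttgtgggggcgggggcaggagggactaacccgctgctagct
DDB2: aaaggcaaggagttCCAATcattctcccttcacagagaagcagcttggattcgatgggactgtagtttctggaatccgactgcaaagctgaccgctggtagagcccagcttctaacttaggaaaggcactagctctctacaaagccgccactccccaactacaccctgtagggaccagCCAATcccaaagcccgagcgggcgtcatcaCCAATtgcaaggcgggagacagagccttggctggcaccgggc

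PARP1 held E2F letters close to its start, PALB2 and CHEK1 held 1 CCAAT each on the opposite strand, and DDB2 held 3 CCAAT on its own strand. Promoters of 41 of the 46 members were matched by gene, with BRCA1 and ERCC1 among them. The RefSeq starts of both lie upstream of their usual starts, so these bases may not be their promoters, and neither held E2F or CCAAT letters. E2F letters stood in 14 of the 41 (34.1%), against 18.8% of the promoters of 8339 tested genes and 11% of all 27305 promoters of this length. CCAAT stood in 20 of the 41 (48.8%), against 36% of tested genes and 33% of all promoters. The GC box letters GGGCGG stood in 70.7% of members, 68.8% of tested genes and 42.3% of all promoters, and the ETS letters CCGGAAG in 29.3%, 18.3% and 8.82%. The cell cycle element called CHR, searched as TTTGAA or TTCGAA, stood in 7.32% of members, 9.57% of tested genes and 14.6% of all promoters. The CRE letters TGACGTCA stood in 7.32%, 3.24% and 1.77%. A match is a description of the sequence and says nothing on whether a factor was bound in these lines.

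Total counts per library ran from 20059656 to 27844799, and values are given as CPM, the counts of a gene per 1000000 counts of its library, scaled by TMM factors. Values of MGMT and of markers of other cell types, most of them under the filter on low values, are given as CPM without these factors. Levels of different genes are compared only per 1000 bases of gene length. On that scale the most abundant members, as means over the 7 lines, were XRCC6 at 151.8 CPM per 1000 bases, PARP1 at 128.4, XRCC5 at 119.3 and PRKDC at 113.3. XRCC5 and XRCC6 encode the Ku subunits that bind broken ends, and PRKDC encodes the kinase they recruit. BARD1, the partner of BRCA1, was the lowest tested member. The median over the 46 members was 18.2 CPM per 1000 bases and that over all tested genes 15.6.

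**Figure D1:**
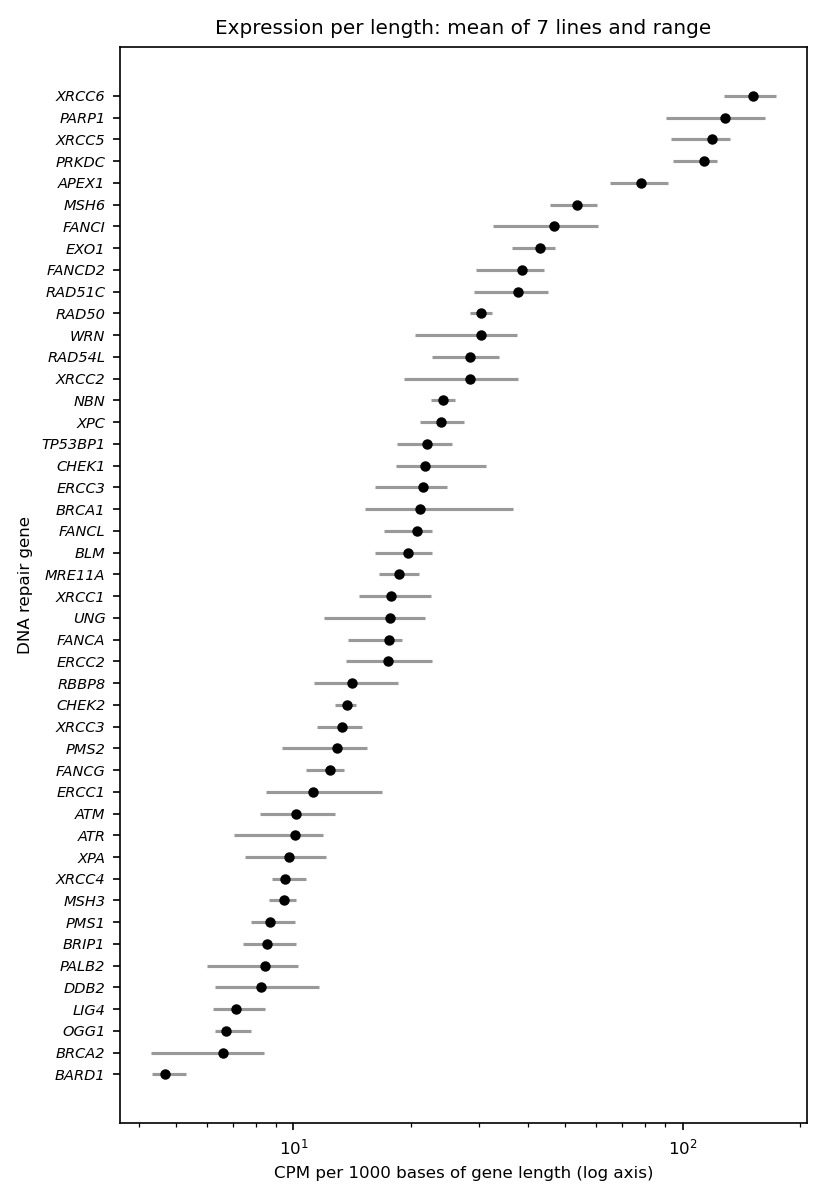
Expression of the 46 tested DNA repair genes in CPM per 1000 bases of gene length, on a log axis. Points are means over the 7 lines and bars run from the lowest to the highest line; XRCC6, PARP1, XRCC5 and PRKDC lie above 100 and BARD1 is lowest.

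With edgeR, few members passed the study's threshold, a false discovery rate (FDR) of 0.005, and they went both ways. DESeq2 called more members and more of all genes at this threshold, with counts given in the closing section. In early stage lines 6 members differed from controls, 13% of the 46, while 18% of all tested genes passed; 4 were higher and 2 lower, where 7.92% and 10.1% of all genes were. In late stage lines 3 passed, 6.52% of members against 7.98% of all genes; 1 was higher and 2 lower (background 3.42% and 4.56%). Over the 5 DasR lines together 2 were higher and 1 lower (3.3% and 4.78%), in all 6.52% against 8.08%. In each comparison the share of members called was below that of all genes. Apart from the early and DasR calls of BRCA1, each member call was lost when one or more single libraries were left out. Early and late comparisons use the same 2 controls, so their fold changes are set side by side and not correlated. Tests were edgeR quasi-likelihood tests with Benjamini-Hochberg adjustment over the 10452 genes. Unless DESeq2 or limma voom is named, each call or lack of a call is that of edgeR. Log2 fold changes are given with their standard errors (SE).

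**Figure D2:**
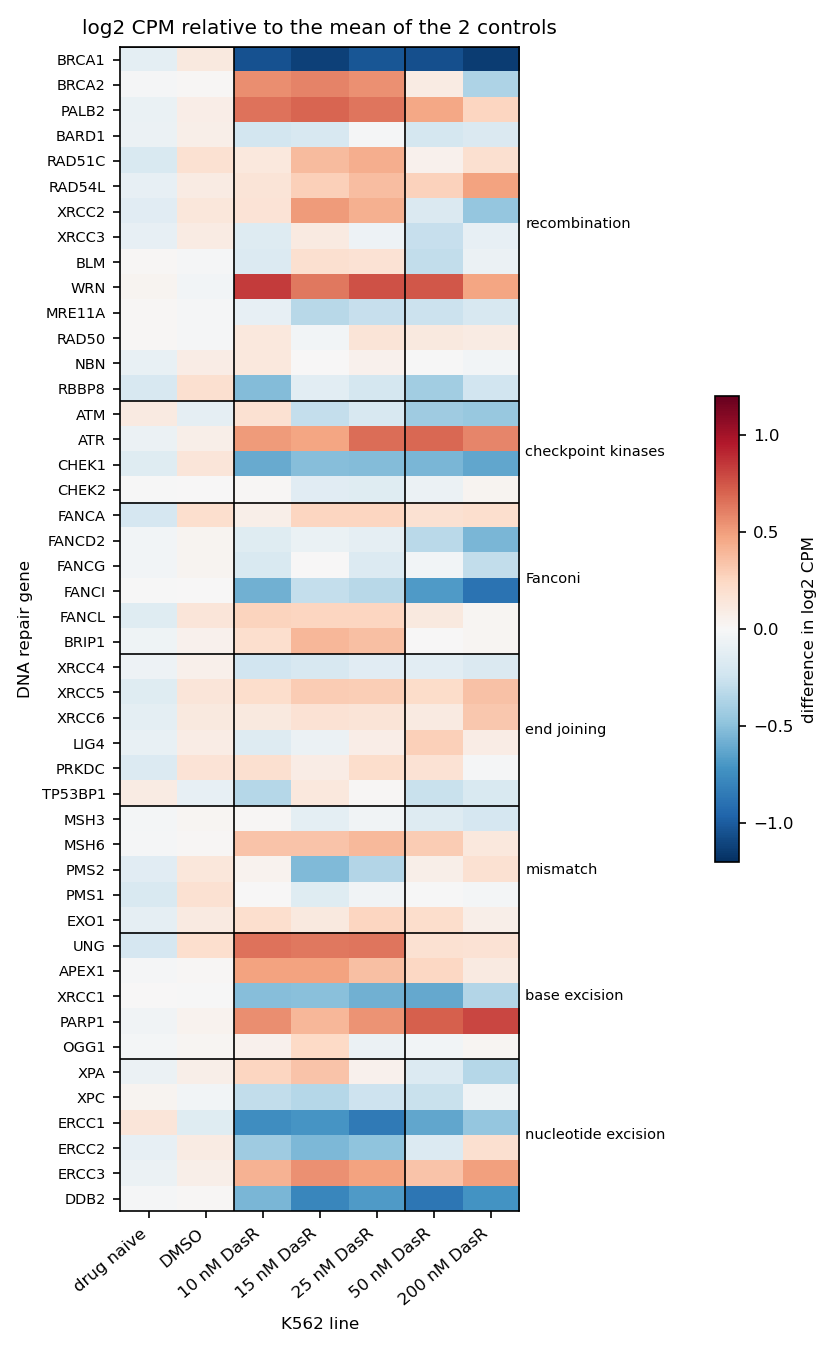
Log2 CPM of each of the 46 members in each of the 7 lines, as the difference from the mean of the 2 controls, grouped by role. Red is higher and blue lower than the controls; BRCA1 is the darkest blue row in all 5 DasR lines and WRN is red in all 5.

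At the looser FDR of 0.05, 10 members were higher and 8 lower in early stage lines, 39.1% of members against 46.5% of all genes (22.6% higher and 24% lower). In late stage lines 4 were higher and 7 lower, 23.9% against 33.9% (16.2% and 17.6%). In the comparison of all DasR lines 6 were higher and 6 lower, 26.1% against 32.4% (15.9% and 16.5%). The median log2 fold change over the members lay near 0 in each comparison, at 0.07 early, -0.02 late and 0.04 over all DasR lines. In 9 members every DasR line was above both controls (24.4% of all tested genes) and in 10 every DasR line was below them (25.1% of all tested genes). Early stage lines did not overlap the controls in 15 members above them and 11 below (35.4% and 35.2% of all genes), and late stage lines in 10 above and 20 below (33.4% and 35.2%).

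**Figure D3:**
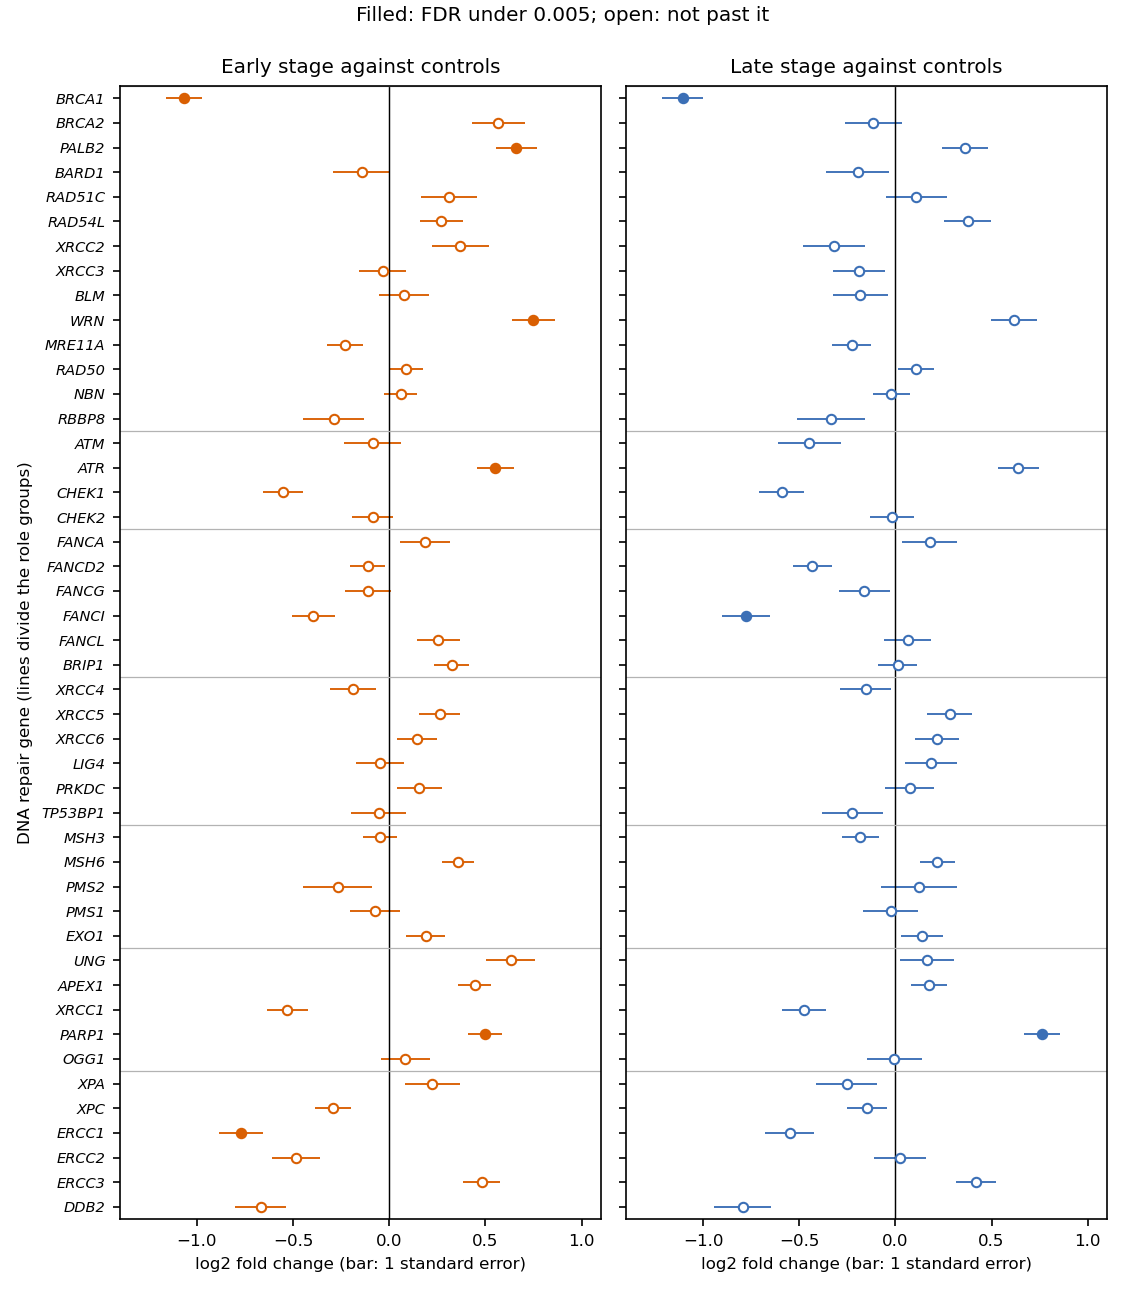
Log2 fold change of each of the 46 members in early stage (left) and late stage (right) lines against the same 2 controls, with bars of 1 SE. Filled points passed an FDR of 0.005; BRCA1 lies near -1.1 in both, and PARP1 and FANCI are filled on the late side.

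BRCA1, which directs recombination at breaks and is mutated in hereditary breast and ovarian cancer, had the largest fall of any member in the early, late and DasR comparisons. It lies at chr17:41196312-41322262 on the minus strand (hg19). Its expression was 229.5 and 269.4 CPM in the drug naive and DMSO controls, 120.3, 114.2 and 122.3 CPM in the 10, 15 and 25 nM DasR lines, and 119.4 and 112.6 CPM in the 50 and 200 nM DasR lines. All DasR lines were below both controls, and among themselves they ranged by 0.12 on the log2 scale, rank 44 of the 46 members when ordered from the widest range to the narrowest. The log2 fold change was -1.07 ± 0.09 (edgeR, FDR = 0.000372) in early stage lines, -1.11 ± 0.11 (FDR = 0.000948) in late stage lines and -1.08 ± 0.08 (FDR = 0.000489) over all DasR lines. In these bulk libraries, fewer cells with the RNA and less RNA per cell cannot be told apart. BRCA1 was the member whose early and DasR calls held in every alternative tried, including leaving out each library in turn; its late call was lost in 4 of 14, with an FDR of at most 0.00599.

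WRN, a RecQ helicase that unwinds recombination intermediates, had the largest rise of any member in early stage lines and over all DasR lines, while PARP1 had it late. Its values were 123.7 and 118.0 CPM in the controls, 215.6, 187.6 and 205.9 CPM in early stage lines and 202.8 and 167.6 CPM in late stage lines. No DasR line reached down to a control. Fitted log2 fold changes were 0.75 ± 0.11 early (edgeR, FDR = 0.0023), 0.62 ± 0.12 late (FDR = 0.00933) and 0.70 ± 0.11 over all DasR lines (FDR = 0.00492), so the late value did not pass the threshold. WRN lies on chr 8 at 30891304-31033654 (hg19).

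PALB2, which joins BRCA1 to BRCA2, was called by edgeR only in early stage lines among the comparisons made. With DESeq2 it was also called over all DasR lines (FDR = 0.00401). It stood at 24.4 and 27.3 CPM in the controls, 40.5, 41.8 and 40.4 CPM in early stage lines and 35.6 and 30.9 CPM in late stage lines. The early stage lines nearly coincided and late stage lines lay between them and the controls. Against controls the log2 fold change was 0.66 ± 0.11 early (edgeR, FDR = 0.00318) and 0.36 ± 0.12 late (FDR = 0.0505), and the late to early difference of -0.30 ± 0.11 did not pass (FDR = 0.105).

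The other 11 recombination members did not pass the FDR of 0.005 in any comparison with edgeR. They include the MRE11A, RAD50 and NBN complex that holds broken ends and RBBP8, which starts their resection. Over all DasR lines MRE11A had a log2 fold change of -0.23 ± 0.08, RAD50 of 0.10 ± 0.08 and NBN of 0.03 ± 0.08 (edgeR, FDR = 0.0744, 0.389 and 0.832). RAD54L, a motor protein of strand exchange, was at 71.2 and 81.5 CPM in controls and between 84.8 and 106.2 CPM in DasR lines, a log2 fold change of 0.31 ± 0.11 (FDR = 0.0642). BLM, XRCC3, RAD51C, BARD1 and RBBP8 had log2 fold changes between -0.31 and 0.23 over all DasR lines, and their values overlapped the controls.

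BRCA2 and XRCC2 carried the clearest differences between stages. BRCA2, a mediator of homologous recombination, was at 62.8 and 64.1 CPM in the controls, 93.2, 95.9 and 93.1 CPM in early stage lines and 68.2 and 49.1 CPM in late stage lines. XRCC2, which also acts in homologous recombination, was at 73.9 and 89.8 CPM in the controls, 91.5, 115.8 and 109.7 CPM in early stage lines and 72.3 and 58.9 CPM in late stage lines. Both genes were lower in each late stage line than in any early stage line, and in XRCC2 all early stage lines lay above and both late stage lines below the controls. These were the members with the widest range over the 5 DasR lines, 0.97 for XRCC2 and 0.96 for BRCA2 on the log2 scale, where the median member ranged by 0.31 and the median tested gene by 0.43.

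From early to late stage, the log2 fold change was -0.68 ± 0.14 for BRCA2 (edgeR, FDR = 0.0255) and -0.69 ± 0.15 for XRCC2 (FDR = 0.0315). At the FDR of 0.005 no member and none of the 10452 genes passed in this comparison (0%). At an unadjusted edgeR p under 0.05, 12 of the 46 members and 3450 of the 10452 genes differed between stages. DESeq2 called 2 members and 1135 genes at its FDR of 0.005. In both counts the share of members was below that of all genes. At the FDR of 0.05, 3 members differed (6.52%, background 12.7%). BRCA2 and XRCC2 were lower, where 6.1% of all genes were, and ERCC2, described below, was higher, where 6.6% were. Late stage lines lay below every early stage line in 14 members and above every one in 5, while 26.9% and 26.4% of all genes did so.

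**Figure D4:**
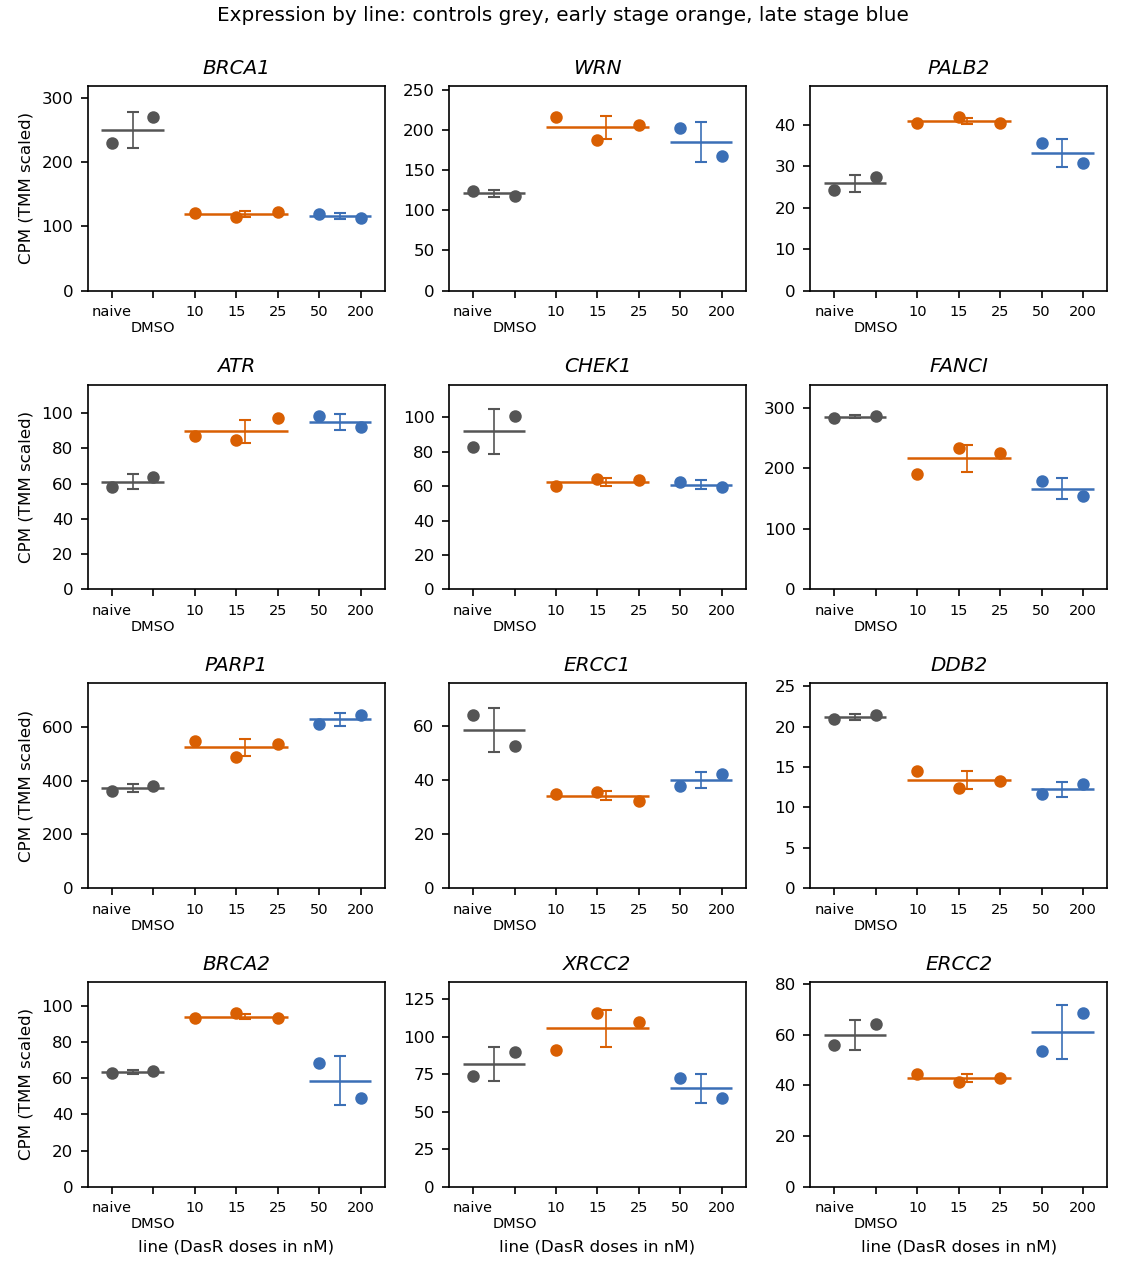
TMM scaled CPM of 12 members in each line, with controls in grey, early stage lines in orange and late stage lines in blue; horizontal lines are group means and bars are SDs (n = 2, 3 and 2). Every DasR line lies below both controls in BRCA1, CHEK1, FANCI, ERCC1 and DDB2 and above them in WRN, PALB2, ATR and PARP1.

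Among the 4 checkpoint kinases, ATR was higher in DasR lines and CHEK1, the kinase it activates, had lower values. ATR (chr3:142167849-142297575, minus strand, hg19) was at 58.2 and 64.1 CPM in the controls, 87.0, 84.7 and 97.2 CPM in early stage lines and 98.5 and 91.9 CPM in late stage lines. All DasR lines were above both controls. The log2 fold change was 0.55 ± 0.10 early (edgeR, FDR = 0.00424), 0.64 ± 0.11 late (FDR = 0.00537) and 0.59 ± 0.10 over all DasR lines (FDR = 0.00485).

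CHEK1 was at 82.7 and 100.8 CPM in the controls, 59.9, 64.2 and 63.7 CPM in early stage lines and 62.6 and 59.2 CPM in late stage lines. All DasR lines lay below both controls. The log2 fold changes of -0.55 ± 0.10 early, -0.59 ± 0.12 late and -0.57 ± 0.09 over all DasR lines came close to the threshold without passing it (edgeR, FDR = 0.00526, 0.0093 and 0.00511). ATM, the kinase of double strand breaks, was at 159.6 and 136.8 CPM in the controls and between 107.6 and 167.9 CPM in DasR lines, and CHEK2, its target, stayed between 25.5 and 28.7 CPM in all 7 lines. Neither passed in any comparison with edgeR. CHEK2 reads may be shared with near-identical pseudogene copies, so its values are uncertain.

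In the Fanconi pathway 1 member of 6 was called by edgeR, in late stage lines, where 7.98% of all genes were. FANCI, which forms a clamp on crosslinked DNA with FANCD2, was at 283.6 and 287.0 CPM in the controls, 191.4, 233.3 and 226.1 CPM in early stage lines and 178.6 and 154.3 CPM in late stage lines. The controls were nearly equal and the 200 nM DasR line was lowest. Its log2 fold change was -0.40 ± 0.11 early (edgeR, FDR = 0.0242, and 0.00415 with DESeq2) and -0.78 ± 0.12 late (FDR = 0.00476), and the difference between stages of -0.38 ± 0.11 did not pass (FDR = 0.0673).

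FANCD2 was at 251.6 and 262.4 CPM in controls, between 231.7 and 242.4 CPM in early stage lines and at 205.6 and 175.2 CPM in late stage lines, a late log2 fold change of -0.43 ± 0.10 (edgeR, FDR = 0.0168). It too has near-identical copies and is uncertain. All 6 Fanconi members had log2 fold changes below 0 from early to late stage, from -0.38 for FANCI to -0.01 for FANCA, and none passed the FDR of 0.005 or 0.05; over all tested genes 5301 of 10452 lay below 0. BRIP1, the helicase partner of BRCA1, had an early log2 fold change of 0.32 ± 0.09 (edgeR, FDR = 0.0251), which did not pass the FDR of 0.005. FANCG and FANCL, parts of the core complex, and FANCA gave no FDR under 0.05 in any comparison.

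End joining and mismatch repair held no member called by edgeR at the FDR of 0.005, while DESeq2 called MSH6 early (FDR = 0.000489). XRCC5 had the smallest p of the end joining genes in the comparison of all DasR lines, with 321.0 and 392.1 CPM in the controls, 410.4, 438.5 and 434.6 CPM in early stage lines and 414.6 and 452.7 CPM in late stage lines. Every DasR line was above both controls, and the 2 controls stood apart from each other by more than any 2 DasR lines. The log2 fold change of 0.27 ± 0.10 did not pass (edgeR, FDR = 0.071), and it was 0.13 without the drug naive library and 0.42 without the DMSO library. PRKDC, the most read member in CPM, was at 1277 and 1601 CPM in controls and between 1420 and 1658 CPM in DasR lines. LIG4 and XRCC4, which seal the ends, XRCC6 and the break marker TP53BP1 had log2 fold changes between -0.18 and 0.17 over all DasR lines.

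MSH6, which recognises mismatched bases, was at 197.0 and 200.6 CPM in the controls, 252.0, 251.7 and 261.1 CPM in early stage lines and 244.9 and 217.5 CPM in late stage lines. All DasR lines were above both controls. Over all DasR lines the log2 fold change was 0.30 ± 0.09 (edgeR, FDR = 0.0388), short of the threshold. MSH3, PMS1, the exonuclease EXO1 and PMS2 had no FDR under 0.05 in any comparison, and PMS2, with 26.5 to 43.8 CPM over the DasR lines, has near-identical pseudogene copies and is uncertain.

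The base excision genes did not go one way: PARP1 was called higher and XRCC1 had lower values. PARP1, the sensor of single strand breaks that makes poly(ADP-ribose), lies at chr1:226547911-226595855 on the minus strand (hg19), and its promoter is shown above. It was at 361.8 and 382.6 CPM in the controls, 547.8, 490.0 and 539.1 CPM in early stage lines and 613.6 and 647.9 CPM in late stage lines. Late stage lines were above every early stage line, and these above both controls. The log2 fold change was 0.50 ± 0.09 early (edgeR, FDR = 0.00401), 0.76 ± 0.10 late (FDR = 0.00206) and 0.61 ± 0.12 over all DasR lines (FDR = 0.00995); the late to early difference of 0.26 ± 0.09 did not pass (FDR = 0.0833).

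XRCC1, the scaffold that PARP1 recruits, was at 47.5 and 47.4 CPM in the controls, 33.2, 33.5 and 31.9 CPM in early stage lines and 31.0 and 37.3 CPM in late stage lines. All DasR lines were below both controls. Its log2 fold change over all DasR lines was -0.51 ± 0.10 (edgeR, FDR = 0.00791). UNG, which removes uracil, was at 27.2 and 36.0 CPM in the controls, 49.3, 48.5 and 49.1 CPM in early stage lines and 35.5 and 35.4 CPM in late stage lines, so that late stage lines fell within the controls. APEX1, the endonuclease of the next step, was at 100.5 and 102.1 CPM in controls, between 130.5 and 141.6 CPM in early stage lines and at 120.0 and 108.9 CPM in late stage lines. For UNG and APEX1 the early log2 fold changes were 0.63 ± 0.13 and 0.44 ± 0.09 (edgeR, FDR = 0.00685 and 0.00582). OGG1, the oxidised guanine glycosylase, stayed between 17.8 and 22.1 CPM in all 7 lines.

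Of the 6 nucleotide excision genes ERCC1 was called by edgeR, and ERCC1, XPC and DDB2 had log2 fold changes below 0 in the early, late and DasR comparisons alike. The call was early (18% of all genes). ERCC1, a subunit of the nuclease that cuts beside a lesion, was at 64.2 and 52.7 CPM in the controls, 34.7, 35.6 and 32.4 CPM in early stage lines and 37.8 and 42.1 CPM in late stage lines. All DasR lines were below both controls. Its log2 fold change was -0.77 ± 0.11 early (edgeR, FDR = 0.00222), -0.55 ± 0.13 late (FDR = 0.0166) and -0.68 ± 0.13 over all DasR lines (FDR = 0.00753). ERCC1 lies at chr19:45910592-45982086 on the minus strand (hg19). In the GENCODE v44 annotation it shares 1593 of 5575 exon bases with POLR1G on the other strand. The strand setting used for counting is not given in the sources used here, so reads of the overlap cannot be told apart. The same holds for XRCC3, which shares 5756 of 7507 exon bases with KLC1, for MSH6 with FBXO11 (4022 of 17722), TP53BP1 with TUBGCP4 (3732 of 12976), OGG1 with CAMK1 (2175 of 8733) FANCA with ZNF276 (2409 of 12316), XPC with XPC-AS1 (1140 of 4636) and RAD54L with LRRC41 (813 of 4078). RAD50 shares 8124 of 10565 exon bases with a protein-coding gene on its own strand, and those reads cannot be told apart by strand. All these exon bases are those of GENCODE v44. The deposited gene lengths are shorter, at 3806 bases for ERCC1, 2639 for XRCC3, 4328 for MSH6 and 6597 for RAD50. The overlaps are thus not the share of counted reads that is uncertain.

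DDB2, which finds ultraviolet lesions in chromatin and is known as a p53 target, was at 21.0 and 21.5 CPM in the controls, 14.5, 12.3 and 13.2 CPM in early stage lines and 11.6 and 12.9 CPM in late stage lines. All DasR lines lay below both controls, and over all DasR lines its log2 fold change was the lowest after that of BRCA1. It was -0.72 ± 0.12 on the log2 scale (edgeR, FDR = 0.00607), and edgeR called it in no comparison. DESeq2 called it early, late and over all DasR lines (FDR = 0.00146, 0.000948 and 3.28e-05), and limma voom early and over all DasR lines (FDR = 0.00441 and 0.00457). ERCC3, a helicase of TFIIH, had the opposite sign, with 44.6 and 48.9 CPM in controls, between 59.4 and 68.2 CPM in DasR lines and a log2 fold change of 0.46 ± 0.09 (FDR = 0.00903).

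ERCC2, the other helicase of TFIIH, was at 55.9 and 64.1 CPM in the controls, 44.5, 41.3 and 42.8 CPM in early stage lines and 53.5 and 68.5 CPM in late stage lines. Early stage lines were below both controls and late stage lines were above all early stage lines. The late to early log2 fold change was 0.51 ± 0.12 (edgeR, FDR = 0.0414), and the late to control value was 0.02 ± 0.14 (FDR = 0.909). Within TFIIH the 2 helicases thus had early values on opposite sides of the controls, -0.49 ± 0.12 for ERCC2 (FDR = 0.0169) and 0.48 ± 0.10 for ERCC3 (FDR = 0.00629); that difference between genes was not tested. XPC, the damage sensor, had an early log2 fold change of -0.29 ± 0.09 that did not pass the FDR of 0.005 (FDR = 0.0358), and XPA gave no FDR under 0.05 in any comparison.

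As a group, the 5 base excision members had a median log2 difference from the control mean of 0.48, 0.40 and 0.37 in the 10, 15 and 25 nM DasR lines, and of 0.18 and 0.10 in the 50 and 200 nM DasR lines. For the 6 nucleotide excision members it was -0.36, -0.44 and -0.37 in early stage lines and -0.22 and -0.19 in late stage lines. Both medians thus lay nearer to the controls in late stage lines. Single members did not all do so: PARP1 and DDB2 were further from the controls late, and XPA had log2 fold changes of 0.22 early and -0.25 late, neither of which passed. The summed CPM of the base excision members was 555.4 and 587.1 in the controls, 791.2, 735.7 and 768.4 in early stage lines and 818.2 and 848.5 in late stage lines. Erythroid markers, which K562 is known to express, moved over the same lines. All 14 passed the filter on low values, their summed level was 4424 and 3856 CPM in the controls, 12816, 14283 and 11155 CPM in early stage lines and 7181 and 4985 CPM in late stage lines, and none was at 0. HBG2 or HBZ, fetal and embryonic globins, took the most counts among them. Of the 14, 5 were higher early at the FDR of 0.005 (7.92% of all genes) and 1 late (3.42%), and none was lower; at 0.05, 12 were higher early (22.6%) and 1 late (16.2%). Their part in the repair genes' values was not tested.

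Some markers of other cells were read in every line, given here as CPM without TMM factors. The 7 myeloid markers summed to between 28.01 and 109.1 CPM per line, and most of it was LYZ, with 54.7 and 39.98 CPM in the controls, 101.3, 24.6 and 42.1 CPM in early stage lines and 93.2 and 98.9 CPM in late stage lines. CD3D, a T cell gene named here after its values were seen, was at 16.3 and 8.15 CPM in the controls, 3.60, 2.73 and 8.47 CPM in early stage lines and 22.6 and 29.6 CPM in late stage lines. Late stage lines were above both controls in both genes. The 7 fibroblast markers summed to between 5.09 and 19.6 CPM, with COL1A1 or COL1A2 the most counted. MPO, ELANE and PDGFRA were at no more than 3 counts in any line. The cell type in the sample labels is erythroblast, and all 14 erythroid markers were read in each line. The part of cells with LYZ or CD3D in the values of the repair genes was not tested.

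Because many repair genes follow replication, a list of 40 replication and S phase genes was set beside them. Its median difference from the control mean was 0.17, 0.20 and 0.24 on the log2 scale in early stage lines and 0.12 and 0.14 in late stage lines, while the 2 controls themselves lay at -0.12 for drug naive and 0.12 for DMSO. In early stage lines 3 of the 40 were higher and 1 lower at the FDR of 0.005 (7.92% and 10.1% of all genes), and 1 was higher and 3 lower in late stage lines (3.42% and 4.56%). At the FDR of 0.05, 14 were higher and 4 lower early (22.6% and 24%) and 3 higher and 5 lower late (16.2% and 17.6%). The drug naive line was below the DMSO line in 37 of the 46 repair members and 37 of the 40 replication genes, against 5415 of all 10452 genes. In both lists the 2 controls thus differed in this direction more often than in genes in general. The part of cell cycle in the repair genes' values was not tested.

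Other genes of the same routes were read from a list of 91, of which 87 were tested. In early stage lines 5 were higher and 2 lower, 8.05% of the list against 18% of all genes. In late stage lines 1 was higher and 1 lower (2.3% against 7.98%), and over all DasR lines 2 and 2 (4.6% against 8.08%). The list's median log2 fold change was 0.03 early, 0.02 late and 0.0040 over all DasR lines.

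LIG3, the ligase that works with XRCC1, fell furthest of these and stood at 100.9 and 92.1 CPM in the controls, 39.8, 42.3 and 40.4 CPM in early stage lines and 45.4 and 48.5 CPM in late stage lines. MUS81, a nuclease of recombination junctions, was at 73.4 and 74.9 CPM in controls, 43.2, 41.7 and 43.4 CPM in early stage lines and 48.4 and 52.8 CPM in late stage lines. In both genes all DasR lines lay below both controls. Over all DasR lines the log2 fold change was -1.16 ± 0.10 for LIG3 (edgeR, FDR = 0.000609) and -0.69 ± 0.11 for MUS81 (FDR = 0.00416).

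RNF8, a ubiquitin ligase that marks chromatin at breaks, was at 28.1 and 30.1 CPM in the controls and between 47.9 and 49.9 CPM in all 5 DasR lines. FEN1, the flap nuclease of long patch base excision and of replication, was at 104.0 and 113.0 CPM in the controls and between 157.7 and 184.6 CPM in DasR lines. Neither group of DasR values overlapped the controls. The log2 fold changes over all DasR lines were 0.75 ± 0.08 for RNF8 (edgeR, FDR = 0.00115) and 0.68 ± 0.10 for FEN1 (FDR = 0.00313).

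The surroundings of BRCA1 and CHEK1 were looked at after their values had been seen. Of 41 tested genes within 1 Mb of BRCA1, 30 had a log2 fold change below 0 over all DasR lines, 5 were lower and none higher at the FDR of 0.005, and their median was -0.34. Of the 8726 genes with at least 5 tested neighbours, 6.49% had a neighbour median at or below that. NBR2, on the plus strand within the annotated span of BRCA1, had a log2 fold change of -1.90 (edgeR, FDR = 0.000342), VAT1 of -1.51 (FDR = 0.000200) and NBR1 of -1.06 (FDR = 0.000956), while DHX8 further along had 0.06 (FDR = 0.614). AARSD1 and STAT5B, centred at -149.8 and -863.4 kb from the middle of BRCA1 on the side of VAT1, were also lower at this FDR. Their log2 fold changes were -0.97 (edgeR, FDR = 0.00203) and -0.99 (FDR = 0.000671). The low values thus ran over NBR2 and the genes on either side of BRCA1 and were not confined to them.

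CHEK1 (chr11:125495058-125546150, plus strand, hg19) had 16 tested neighbours, of which 13 lay below 0, with a median of -0.80. At the FDR of 0.005, 7 were lower and 1, FEZ1, was higher, and 0.481% of genes had a neighbour median at or below that of CHEK1. By line, the neighbours' median difference from the control mean was between -0.84 and -0.67 in the 5 DasR lines for CHEK1 and between -0.33 and -0.29 for BRCA1. NBN had a neighbour median of -0.80 as well, over 8 genes, while its own log2 fold change was 0.03. FANCI, called late, had 15 neighbours with a median of -0.51 beside its own log2 fold change of -0.54 over all DasR lines, and 3.12% of genes had a neighbour median at or below that. Of the 39 members with at least 5 tested neighbours, 4 lay in the lowest 5% by neighbour median (CHEK1, NBN, FANCI and BLM) and 1 in the highest (RAD51C). Neighbours of PARP1 and DDB2 had medians of 0.03 and 0.14, where the members themselves had log2 fold changes of 0.61 and -0.72. DNA copy number was not analysed here, and its part in these values was not tested.

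**Figure D5:**
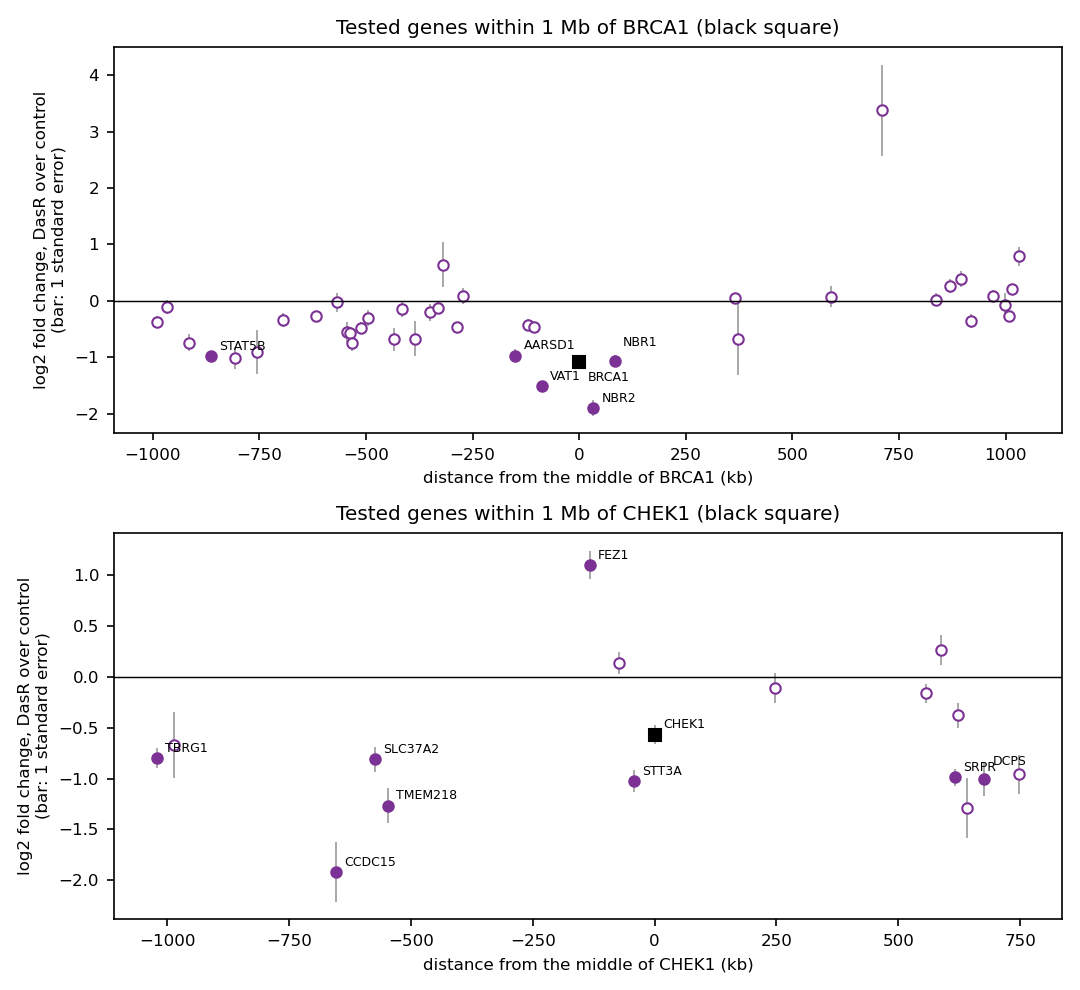
Log2 fold change of all DasR lines over controls for each tested gene within 1 Mb of BRCA1 (top) and CHEK1 (bottom), against distance in kb from the middle of the gene; bars are 1 SE, filled points passed an FDR of 0.005 and the black square is the member itself. VAT1, NBR2 and NBR1 lie within or beside BRCA1 near or below its level, and 13 of the 16 neighbours of CHEK1 lie below 0.

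MGMT, which removes alkyl groups from guanine directly, was read with 2 counts in the drug naive line, 4 in the DMSO line and 0 in each of the 5 DasR lines. A count of 0 allows up to 3 counts, between 0.108 and 0.150 CPM in these libraries by counting error alone. MGMT was thus at or near that limit everywhere and was neither tested nor given a fold change.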

How the data were processed

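RNA was depleted of ribosomal RNA, although the labels call the molecule polyA, made into directional libraries and sequenced as paired reads on a MiSeq. The deposited counts are raw numbers of reads per gene: the authors used STAR for alignment, to hg19, and the submitters' processing notes name featureCounts. The authors' deposited tables of early and late stage comparisons hold log2 fold changes, mean log2 CPM values, p-values and FDR values. Their gene symbols and chromosomes were used here and none of those values.

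A gene was kept if 2 or more libraries reached 10 CPM, which left 10452. TMM factors set the scale. The quasi-likelihood test of edgeR 4.0.16 was run in R 4.3.3, with an FDR of 0.005. One fit held the 3 groups of all 7 libraries, with a common dispersion of 0.0260, and another the treatment labels alone, with 0.0576. The fits were tested on simulated data at the FDR of 0.005. Of 100 genes with a simulated log2 change of 1, 50 were recovered in the early comparison and 16 over all DasR lines. With a change of 2, 92 and 80 of 100 were recovered. A change of 1 or less could thus often be missed, and a lack of a call does not show a lack of change. DESeq2 1.42.0 and limma voom 3.58.1 were alternatives, with other scalings and filters and each library left out. Log2 CPM of single lines used a prior count of 2. A floor of 3 counts covers counting error only, and reads carried no molecular identifiers.

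Members and lists were chosen with earlier results of these data known. Full statistics are given for members past the FDR in any comparison, for the 3 largest rises and falls over all DasR lines, and for the smallest p of a role with no call. The 3 members with the widest range over DasR lines are given by their values, and of the other repair genes those past the FDR over all DasR lines are named. Further statistics of other members and the genes around BRCA1 and CHEK1 were chosen after their values were seen. A list of T and B cell markers is not reported here as a whole. Positions came from GENCODE v44 lifted to GRCh37, the build of hg19, which placed 10086 genes by symbol, and promoters from RefSeq (GRCh38.p14).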

Additional observations from a re-analysis of the deposited data

Results flagged for a closer look

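BARD1 at 25 nM DasR stood apart from the other DasR lines. Its log2 CPM was 3.71, the nearest of the other 4 lines was at 3.55, and the gap took 0.779 of the range of the 5 lines, above the critical value of 0.71. It was the only one of the 46 members so marked, and chance marks about 1 in 20 groups.

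XRCC2 was above both controls in every early stage line and below both in every late stage line. The difference between stages was -0.69 on the log2 scale (edgeR, FDR = 0.0315), which did not pass the FDR of 0.005, and the opposite sides were not tested as such.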

How the results depend on the processing

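With DESeq2 15 members passed early, 9 late, 2 late against early and 10 over all DasR lines, as did 3548, 2503, 1135 and 2655 of all genes and 17, 17, 3 and 14 other repair genes. With edgeR at the FDR of 0.05 the members were 18, 11, 3 and 12, all genes 4865, 3542, 1328 and 3386, and other repair genes 30, 25, 4 and 19. Without the filter on low values, late lines gave 5 members, 4 other repair genes and 1287 of all genes, and late against early 1 other repair gene and 295 of all genes. Fitting only the late and control libraries left 0 members, 0 other repair genes and 257 of all genes.

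Leaving out each library in turn gave 1 to 7 members early, 0 to 3 late, 0 to 1 late against early and 1 to 4 over all DasR lines. For other repair genes it gave 1 to 7, 0 to 2, 0 to 1 and 0 to 4, and for all genes 208 to 2066, 33 to 596, 0 to 198 and 28 to 1376. Over all genes the early, late and DasR counts were lowest without the drug naive library, where the DMSO line stands alone and is taken to vary like the other groups. The early count was highest without the 200 nM library, as was that over all DasR lines, and the late against early count was highest without the 50 nM library. The members' median log2 fold change ran from 0.0097 to 0.091 early, from -0.091 to 0.043 late and from -0.024 to 0.098 over all DasR lines, lowest late and over all DasR lines without the drug naive library and highest in all 3 without the DMSO library, so its sign late and over all DasR lines depended on which control was used.

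Of the calls of single members, PALB2, PARP1 and ERCC1 early were lost on leaving out any control or early stage library (FDR up to 0.0284, 0.0333 and 0.0190), PARP1 also with the filter at 1 CPM, WRN early in 4 of 14 alternatives (up to 0.0187), ATR early in 8 (up to 0.0362), PARP1 late in 6 (up to 0.0180) and FANCI late in 9 (up to 0.0284). Over all DasR lines WRN lost its call in 6 of 13 (up to 0.0455) and ATR in 12 (up to 0.0561). These members kept their direction against controls throughout. The log2 fold change of XRCC5, which was not called, ran from 0.13 to 0.41 early, 0.15 to 0.43 late and 0.13 to 0.42 over all DasR lines. Late against early, BRCA1 changed sign to 0.0016 without the filter and ranged from -0.081 to 0.0055 over the libraries left out, and XRCC5 ranged from -0.045 to 0.081; both turned without the 200 nM library and XRCC5 also without the 10 nM library, at -0.0098, and the cause was not tested. Scaling by total counts or DESeq2 size factors reversed none of the 40 results for single members. No paired analysis was possible because no line was sequenced more than once and the replicate numbers only name the lines. Read depth was not varied; at this depth MGMT lay at or near the floor.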
